A study of Homo sapiens with 12 samples.

Results

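The sestrins, DDIT4, the 4E-BP translational repressors, RagC, RagD and folliculin with its partner FNIP1 form a set of brakes and switches around mTORC1, the kinase complex that couples amino acids and growth factors to protein synthesis. The 10 genes are SESN1, SESN2, SESN3, DDIT4, EIF4EBP1, EIF4EBP2, RRAGC, RRAGD, FLCN and FNIP1. They were taken by gene symbol, and all 10 were found among 30017 symbols and passed the filter on low counts that left 16010. Polyadenylated RNA was measured by bulk sequencing in THP-1, an established line of human monocytic leukaemia, and the 12 libraries fall into 4 groups of 3. IRAK4 knockout (KO) cells were given 50 nM CC-885 or DMSO for 12 h, and wild-type (WT) cells were given the same CC-885 or DMSO. All cells were electroporated with Cas9, with a guide RNA against IRAK4 for KO and without one for WT, and were grown from single cells. The labels do not give the number of clones behind a genotype, so the loss of IRAK4 and differences between clones cannot be told apart. CC-885 acts through cereblon, which picks substrates for a ubiquitin ligase, and leads to the destruction of GSPT1, a factor needed to end translation.

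As background, amino acids reach mTORC1 through the Rag GTPases on the lysosome. A heterodimer of RagA or RagB with RagC or RagD recruits the complex, folliculin with FNIP1 or FNIP2 acts as the GTPase-activating protein of RagC and RagD, and sestrins bind the GATOR2 complex to hold the pathway back when leucine is scarce. DDIT4, also named REDD1, restrains mTORC1 through the TSC complex, which switches off the GTPase RHEB. The 4E-BPs bind the cap-binding factor eIF4E until mTORC1 phosphorylates them. The genes are also known stress targets. ATF4, the transcription factor of the integrated stress response, drives SESN2, DDIT4 and EIF4EBP1, p53 drives SESN1 and SESN2, FOXO factors drive SESN3, and the lysosomal factors TFEB and TFE3 drive RRAGC, RRAGD, FLCN and FNIP1. The values below are transcript levels, and neither protein nor mTORC1 activity was analysed here.

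The promoter windows of the 3 genes with the largest rises under CC-885, SESN2, DDIT4 and FNIP1, are shown, and that of RRAGC is added because it holds the same letters as FNIP1. Windows are RefSeq sequence of build GRCh38.p14, 300 bases from 250 before to 50 after the annotated start, and capitals mark CCAAT (on the other strand ATTGG), the CLEAR-type letters TCACGTG (on the other strand CACGTGA) and, in RRAGC, the AP-1 letters TGANTCA. The SESN2 window lies at chr1:28259268-28259567 (plus strand), that of DDIT4 at chr10:72273674-72273973 (plus), that of FNIP1 at chr5:131796968-131797267 (minus) and that of RRAGC at chr1:38859723-38860022 (minus).
SESN2: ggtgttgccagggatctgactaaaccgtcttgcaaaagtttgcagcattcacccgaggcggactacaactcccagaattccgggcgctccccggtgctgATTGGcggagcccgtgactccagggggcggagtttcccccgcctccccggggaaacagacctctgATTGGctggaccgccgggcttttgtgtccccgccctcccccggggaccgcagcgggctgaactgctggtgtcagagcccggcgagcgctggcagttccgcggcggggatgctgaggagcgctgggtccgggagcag
DDIT4: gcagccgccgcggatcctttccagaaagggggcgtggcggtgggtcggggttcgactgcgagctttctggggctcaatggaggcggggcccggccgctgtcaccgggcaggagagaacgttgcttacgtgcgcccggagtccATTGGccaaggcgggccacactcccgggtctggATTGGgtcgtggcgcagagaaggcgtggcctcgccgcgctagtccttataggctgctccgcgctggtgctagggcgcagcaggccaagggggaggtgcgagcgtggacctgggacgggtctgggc
FNIP1: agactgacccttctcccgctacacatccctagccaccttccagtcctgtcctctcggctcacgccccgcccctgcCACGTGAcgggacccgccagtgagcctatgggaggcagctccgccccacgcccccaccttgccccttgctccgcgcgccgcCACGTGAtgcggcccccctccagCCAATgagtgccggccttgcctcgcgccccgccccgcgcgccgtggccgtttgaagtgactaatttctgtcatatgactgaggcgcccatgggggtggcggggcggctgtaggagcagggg
RRAGC: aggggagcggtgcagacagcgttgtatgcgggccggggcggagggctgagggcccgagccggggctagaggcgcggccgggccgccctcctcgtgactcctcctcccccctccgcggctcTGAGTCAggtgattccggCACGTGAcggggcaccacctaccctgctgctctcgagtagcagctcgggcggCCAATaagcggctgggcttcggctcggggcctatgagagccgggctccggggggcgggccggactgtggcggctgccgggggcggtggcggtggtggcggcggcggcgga

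The FNIP1 window held CACGTGA at -175 and -94 from the start, and the RRAGC window held it at -112. Those letters or their complement stood in 3.71% of 35116 windows of the same length. The RRAGC window also held TGAGTCA at -130, a motif found in 7.71% of windows. CCAAT or ATTGG stood at -151 and -86 in SESN2, at -108 and -75 in DDIT4, at -71 in FNIP1 and at -60 in RRAGC, and in 34.6% of all windows. Of the genes not printed, SESN1 held CCAAT or ATTGG in 2 of its 3 windows, and the windows of SESN3, EIF4EBP2 and FLCN held none of the letters marked here. The ATF4 composite letters TGATGNAA (3.62% of windows), the longer CLEAR letters TCACGTGA, which contain TCACGTG (0.98%), and the FOXO letters GTAAACA (3.42%) were in none of the windows of the 8 genes that had one. These letters were searched on both strands, and the CCAAT letters were added to the search after the values were seen. So were the TATA box (TATAAA), which is in 11.5% of all windows and in none of these, and the GC box (GGGCGG), which is in 45% of all windows and is not capitalised. RRAGD and EIF4EBP1 are named only.

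The libraries were deep and the labelled treatments and genotypes parted cleanly. Totals ranged from 46903984 to 56675539 counts, the first principal component of log2 CPM (read counts scaled to library size) held 64.6% of the variance and parted CC-885 from DMSO, and the next held 24.7% and parted KO from WT. IRAK4, the edited kinase, averaged 30.7 ± 1.05 CPM in KO under CC-885, 8.26 ± 0.847 CPM in KO under DMSO, 72.8 ± 9.53 CPM in WT under CC-885 and 52.2 ± 1.57 CPM in WT under DMSO (SD, n = 3 each). Its transcript was lower in KO than in WT by log2 -1.25 under CC-885 and -2.66 under DMSO (adjusted p = 1.14e-08 and 1.68e-11). GSPT1 transcript averaged 298 ± 2.29 and 180 ± 9.65 CPM in KO under CC-885 and DMSO, and 253 ± 6.01 and 223 ± 8.57 CPM in WT. Of 16 monocytic leukaemia markers 15 averaged at least 5 CPM. Of 41 markers of T and NK, B, erythroid, epithelial, stromal and endothelial cells, 11 were at 0 in every library and 3 passed 5 CPM in some library, namely PECAM1, which monocytes also express (92.7 to 441 CPM), NKG7 (at most 19.8 CPM) and PAX5 (at most 6.71 CPM). The summed epithelial, stromal and endothelial list without PECAM1 stayed between 1.31 and 3.61 CPM. The monocytic markers themselves moved, with 14 of 16 lower under CC-885 in KO and 13 of 16 lower in WT. Of all tested genes 40.0% were lower in KO and 36.6% in WT. The part of the markers in the results below was not tested. The summed level of the 16 markers was 3489 to 3537 CPM in KO under CC-885 and 7033 to 8522 CPM in KO under DMSO. In WT it was 3388 to 3556 CPM under CC-885 and 4987 to 5106 CPM under DMSO. One library stands apart: counts of WT CC-885 replicate 3 gave 81.2 and 66.4 as chi-square divided by its degrees of freedom when set beside its fellow replicates, which gave 5.31 among themselves (the lowest of any pair of replicates was 4.29, above sampling noise), and the results that it moves most are given with and without it.

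SESN2 was the member with the largest rise. It read 144, 144 and 148 CPM in KO under CC-885, against 10.6, 12.0 and 9.09 CPM in KO under DMSO. In WT it read 372, 378 and 364 CPM under CC-885, against 12.8, 13.5 and 13.5 CPM under DMSO. The treated and untreated libraries lie far apart in both genotypes, and the treated WT libraries stand above all treated KO libraries. The rise was 13.7-fold in KO (log2 3.78 ± 0.08, SE; adjusted p = 1.41e-15) and 28.0-fold in WT (4.81 ± 0.08; adjusted p = 3.42e-16), by edgeR's quasi-likelihood test with Benjamini-Hochberg adjustment over the 16010 genes. The difference of the responses, KO minus WT, was -1.03 ± 0.11 on the log2 scale (adjusted p = 4.94e-06). Under CC-885 SESN2 was thus lower in KO than in WT by log2 -1.35 ± 0.07 (adjusted p = 3.46e-10), and under DMSO by -0.33 ± 0.08 (adjusted p = 0.00287). The DMSO difference is the small one. It was -0.18 and lost its call among the libraries whose names begin with 51, where replicate 1 is the only WT DMSO library. Among those whose names begin with 52, where KO DMSO replicate 3 is the only KO library, it was -0.49. No label says what these prefixes mean.

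SESN3 went the other way. It read 194, 188 and 169 CPM in KO under CC-885, against 403, 441 and 504 CPM in KO under DMSO. Treated WT libraries read 133, 141 and 161 CPM, against 286, 346 and 314 CPM in untreated WT libraries. No treated library reaches the level of an untreated one in the same genotype, and every KO library is above every WT library of the same treatment. The fall was -1.29 ± 0.10 (log2, SE) in KO (adjusted p = 5.81e-09) and -1.12 ± 0.10 in WT (adjusted p = 4.47e-08). The responses differed by -0.17 with a 95% interval from -0.46 to 0.12 (adjusted p = 0.362), so a difference of the size seen for SESN2 lies outside that interval. Without WT CC-885 replicate 3 the responses differed by -0.08 (adjusted p = 0.615). SESN3 was higher in KO than in WT under DMSO by 0.51 ± 0.09 (adjusted p = 0.000408) and under CC-885 by 0.34 ± 0.10 (adjusted p = 0.00628), or 0.43 without that library.

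SESN1, the third sestrin, rose modestly. It read 66.6, 64.6 and 60.1 CPM in KO under CC-885, against 36.2, 37.9 and 35.2 CPM in KO under DMSO. In WT it read 41.7, 40.6 and 41.6 CPM under CC-885, against 28.7, 27.3 and 26.2 CPM under DMSO. The 4 groups do not overlap, and their order from the highest was KO under CC-885, WT under CC-885, KO under DMSO and WT under DMSO. The rise was 0.81 ± 0.06 in KO (adjusted p = 6.59e-09) and 0.59 ± 0.06 in WT (adjusted p = 4.66e-07). The difference of the responses, 0.21 with a 95% interval from 0.02 to 0.41, did not pass after adjustment (adjusted p = 0.08). SESN1 was higher in KO than in WT by 0.63 ± 0.06 under CC-885 (adjusted p = 5.04e-07) and by 0.41 ± 0.06 under DMSO (adjusted p = 7e-05).

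**Figure D1:**
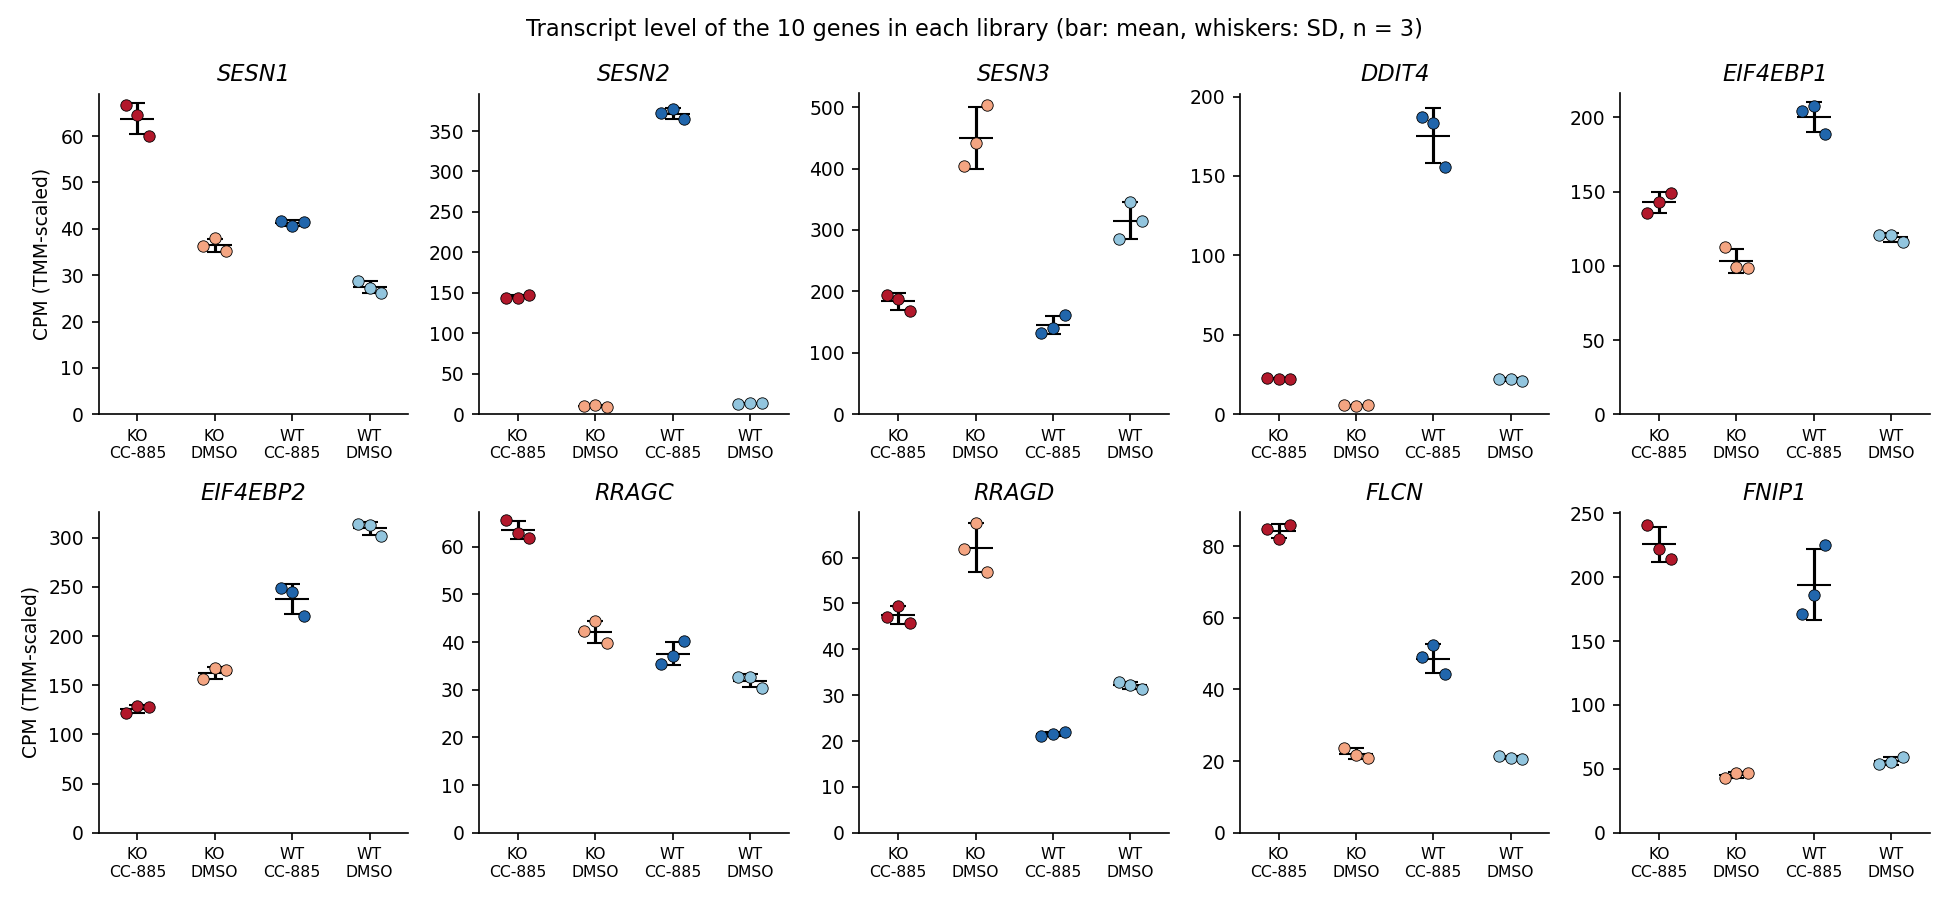
Level of each of the 10 genes in every library, in CPM with TMM scaling (y axes start at 0 and differ between panels), for KO under CC-885, KO under DMSO, WT under CC-885 and WT under DMSO; points are libraries, the long bar the mean and the whiskers the SD of 3. SESN2 and DDIT4 stand highest in treated WT libraries, FLCN and RRAGC in treated KO libraries, and EIF4EBP2 is lower in both KO groups than in either WT group.

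Set on a per-length scale, the sestrin that made up most of the family's transcripts was a different one in treated and untreated cells. CPM per kb of exon summed over the family was 76.2 ± 1.57 in KO under CC-885, 56.2 ± 4.54 in KO under DMSO, 132 ± 1.15 in WT under CC-885 and 41.6 ± 2.88 in WT under DMSO (SD, n = 3 each). SESN2 made up 55.2% ± 1.93 of that sum in KO under CC-885, against 5.48% ± 1.00 in KO under DMSO. In WT it made up 81.4% ± 1.14 under CC-885, against 9.25% ± 0.443 under DMSO. SESN3 held 23.6% ± 1.25 in KO under CC-885, against 78.0% ± 2.59 in KO under DMSO, and 10.7% ± 1.10 in WT under CC-885, against 74.0% ± 2.03 in WT under DMSO. SESN1 held 21.2% ± 0.685 in KO under CC-885, 16.5% ± 1.62 in KO under DMSO, 7.92% ± 0.177 in WT under CC-885 and 16.8% ± 1.72 in WT under DMSO. These shares use the exon union of GENCODE v29, which counts every annotated exon whether or not it is used in these cells.

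**Figure D2:**
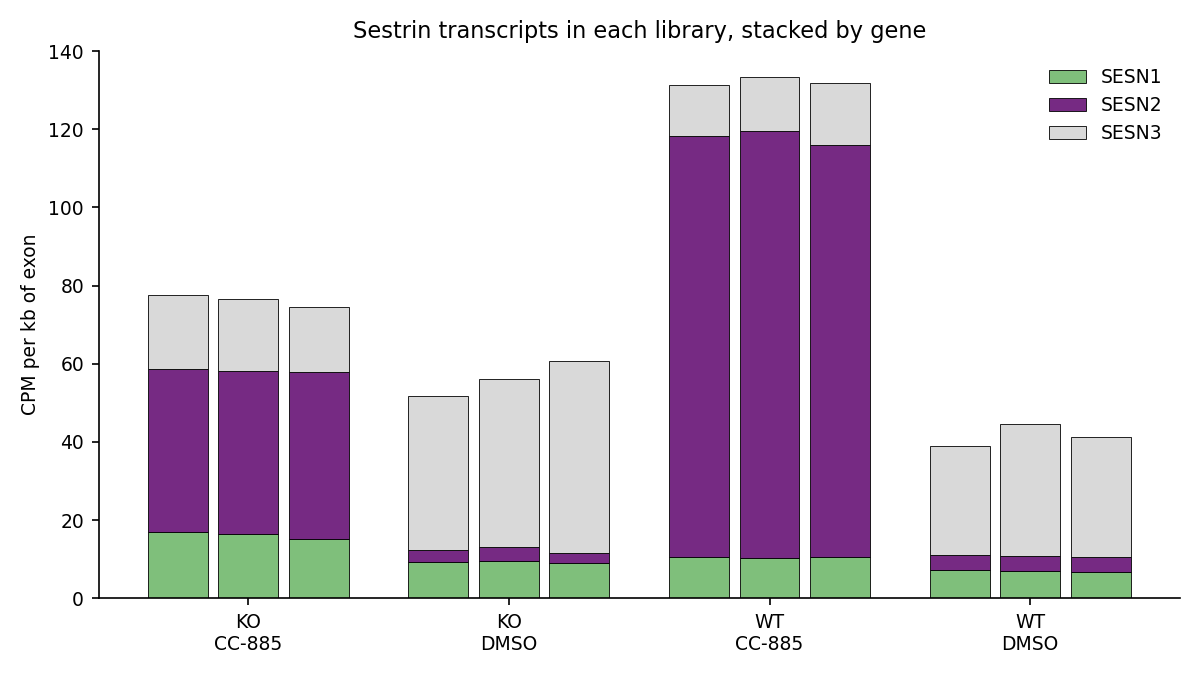
Sestrin transcripts in each of the 12 libraries, stacked by gene, in CPM per kb of exon; groups run from KO under CC-885 to WT under DMSO, 3 bars each. The SESN3 section is the tallest in all DMSO bars and the SESN2 section in all CC-885 bars, and the sum is highest in WT under CC-885, at 132 on average.

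DDIT4 rose in both genotypes but from a lower base in KO. It read 23.1, 22.4 and 22.2 CPM in KO under CC-885, against 5.92, 4.89 and 5.70 CPM in KO under DMSO. In WT it read 187, 183 and 156 CPM under CC-885, against 22.4, 22.2 and 21.0 CPM under DMSO. The treated KO libraries overlap the untreated WT libraries, and every other pair of groups is apart. The lowest of the treated WT values belongs to replicate 3. The rise was 4.10-fold in KO (log2 2.04 ± 0.09; adjusted p = 3.23e-12) and 8.03-fold in WT (3.00 ± 0.08; adjusted p = 3.96e-14), and the responses differed by -0.97 ± 0.12 (adjusted p = 2.02e-05). KO stood below WT by log2 -2.96 ± 0.08 under CC-885 (adjusted p = 6.63e-13) and by -1.99 ± 0.09 under DMSO (adjusted p = 8.24e-11). Without WT CC-885 replicate 3 the responses differed by -1.04.

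The 4E-BPs moved in opposite directions under CC-885. EIF4EBP1 read 135, 143 and 149 CPM in KO under CC-885, against 113, 98.9 and 98.8 CPM in KO under DMSO. WT values were 204, 208 and 189 CPM under CC-885, against 121, 121 and 116 CPM under DMSO. Its treated libraries are above the untreated ones in both genotypes, and each KO group is below the WT group of the same treatment. The rise was 0.46 ± 0.06 in KO (log2; adjusted p = 6.18e-06) and 0.75 ± 0.06 in WT (adjusted p = 2.69e-08), with a difference of -0.29 ± 0.09 (adjusted p = 0.0223). That difference lost its call without KO CC-885 replicate 1 (-0.25, adjusted p = 0.0668), KO DMSO replicate 1 (-0.22, 0.0543), WT CC-885 replicate 2 (-0.26, 0.0606) or WT DMSO replicate 3 (-0.27, 0.0593). KO was lower than WT by -0.49 ± 0.06 under CC-885 (adjusted p = 8.26e-06) and by -0.20 ± 0.06 under DMSO (adjusted p = 0.0165). The DMSO call was lost without KO DMSO replicate 2 or 3 or WT DMSO replicate 2 (adjusted p = 0.0748, 0.0723 and 0.0533), and with upper-quartile scaling it was -0.08 (adjusted p = 0.406).

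EIF4EBP2 read 121, 129 and 128 CPM in KO under CC-885, against 156, 167 and 166 CPM in KO under DMSO. WT values were 249, 245 and 220 CPM under CC-885, against 314, 313 and 301 CPM under DMSO. The 4 groups are apart, with both WT groups above both KO groups. The fall under CC-885 was -0.37 ± 0.06 in KO (adjusted p = 2.37e-05) and -0.38 ± 0.06 in WT (adjusted p = 2.05e-05), and the difference of the responses, 0.01 with a 95% interval from -0.16 to 0.18, did not pass and changed sign under other settings. KO was lower than WT by -0.91 ± 0.06 under CC-885 (adjusted p = 2.92e-09) and by -0.93 ± 0.06 under DMSO (adjusted p = 3.28e-09). Per kb of exon EIF4EBP1 was the highest of the 10 genes in every group, at 140 ± 6.81 CPM per kb in KO under CC-885, 101 ± 7.95 in KO under DMSO, 196 ± 9.78 in WT under CC-885 and 117 ± 2.75 in WT under DMSO (SD, n = 3 each). It made up 88.9% ± 0.254 and 81.8% ± 1.66 of the summed EIF4EBP1 and EIF4EBP2 transcripts per kb, with EIF4EBP3 left out, in KO under CC-885 and DMSO, and 85.7% ± 0.273 and 73.2% ± 0.0349 in WT.

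RRAGC and RRAGD, which encode the interchangeable RagC and RagD partners of the Rag dimer, also moved in opposite directions. RRAGC read 65.6, 63.0 and 61.9 CPM in KO under CC-885, against 42.3, 44.4 and 39.9 CPM in KO under DMSO. WT values were 35.4, 37.2 and 40.2 CPM under CC-885, against 32.7, 32.7 and 30.4 CPM under DMSO. The treated KO libraries stand alone at the top, and the untreated KO libraries overlap the treated WT ones. The rise was 0.59 ± 0.07 in KO (adjusted p = 6.32e-07) and 0.24 ± 0.07 in WT (adjusted p = 0.00557), and the difference was 0.35 ± 0.10 (adjusted p = 0.00954; 0.27, adjusted p = 0.064, with no filter on low counts). The WT rise was 0.14 and lost its call among libraries with the prefix 51, where replicate 1 is the only WT DMSO library. Among those with the prefix 52 it was 0.38, and the only treated WT library there is WT CC-885 replicate 3, which stands apart. Without that library the WT rise was 0.19 (adjusted p = 0.0166). RRAGC was higher in KO than in WT by 0.76 ± 0.07 under CC-885 (adjusted p = 1.27e-07) and by 0.40 ± 0.07 under DMSO (adjusted p = 0.000148).

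RRAGD read 47.0, 49.5 and 45.8 CPM in KO under CC-885, against 61.9, 67.6 and 56.9 CPM in KO under DMSO. Treated WT libraries read 21.2, 21.6 and 21.9 CPM, against 32.9, 32.2 and 31.4 CPM in untreated WT libraries. All KO libraries are above all WT libraries. KO exceeded WT by 1.14 ± 0.07 under CC-885 (adjusted p = 2e-09) and by 0.95 ± 0.07 under DMSO (adjusted p = 1.55e-08), the largest genotype difference above WT among the 10 genes. The fall under CC-885 was -0.39 ± 0.07 in KO (adjusted p = 7.22e-05) and -0.58 ± 0.07 in WT (adjusted p = 1.74e-06), and the difference of 0.19, with a 95% interval from -0.02 to 0.39, did not pass (adjusted p = 0.156). RRAGC made up 70.6% ± 0.987 and 55.0% ± 0.797 of the summed RagC and RagD transcripts per kb in KO under CC-885 and DMSO, and 75.7% ± 0.851 and 64.0% ± 0.531 in WT (SD, n = 3 each).

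FLCN, which encodes folliculin, rose more in KO. It read 84.9, 82.0 and 85.9 CPM in KO under CC-885, against 23.8, 21.8 and 20.8 CPM in KO under DMSO. Treated WT libraries read 49.0, 52.5 and 44.3 CPM, against 21.4, 20.8 and 20.5 CPM in untreated WT libraries. The untreated groups overlap and the treated groups do not. The rise was 3.81-fold in KO (log2 1.93 ± 0.07; adjusted p = 8.12e-13) and 2.32-fold in WT (1.22 ± 0.07; adjusted p = 3.63e-10), a difference of 0.71 ± 0.10 (adjusted p = 8.66e-05). KO exceeded WT by 0.79 ± 0.07 under CC-885 (adjusted p = 1.33e-07), whereas under DMSO the difference was 0.08 with a 95% interval from -0.08 to 0.24 (adjusted p = 0.389).

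FNIP1, the partner of folliculin, read 241, 222 and 214 CPM in KO under CC-885, against 42.9, 46.7 and 47.0 CPM in KO under DMSO. Treated WT libraries read 171, 186 and 225 CPM, against 53.7, 55.3 and 59.3 CPM in untreated WT libraries. The treated groups overlap, because the highest WT library, replicate 3, lies within the KO range. The rise was 4.95-fold in KO (2.31 ± 0.09; adjusted p = 1.01e-12) and 3.46-fold in WT (1.79 ± 0.09; adjusted p = 3.33e-11), with a difference of 0.52 ± 0.12 (adjusted p = 0.00384) that was 0.64 (adjusted p = 1.27e-05) without that library. KO was lower than WT under DMSO by -0.30 ± 0.09 (adjusted p = 0.00931), which was -0.18 (adjusted p = 0.0734) with upper-quartile scaling. Under CC-885 KO was higher by 0.22 ± 0.08 (adjusted p = 0.0389). That value was 0.34 (adjusted p = 0.000176) without WT CC-885 replicate 3. The call was lost without KO CC-885 replicate 1 or 2, KO DMSO replicate 2, or WT CC-885 replicate 1 or 2, where the value was 0.17, 0.23, 0.22, 0.13 and 0.19 in that order (adjusted p = 0.154, 0.0701, 0.05, 0.183 and 0.118).

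**Figure D3:**
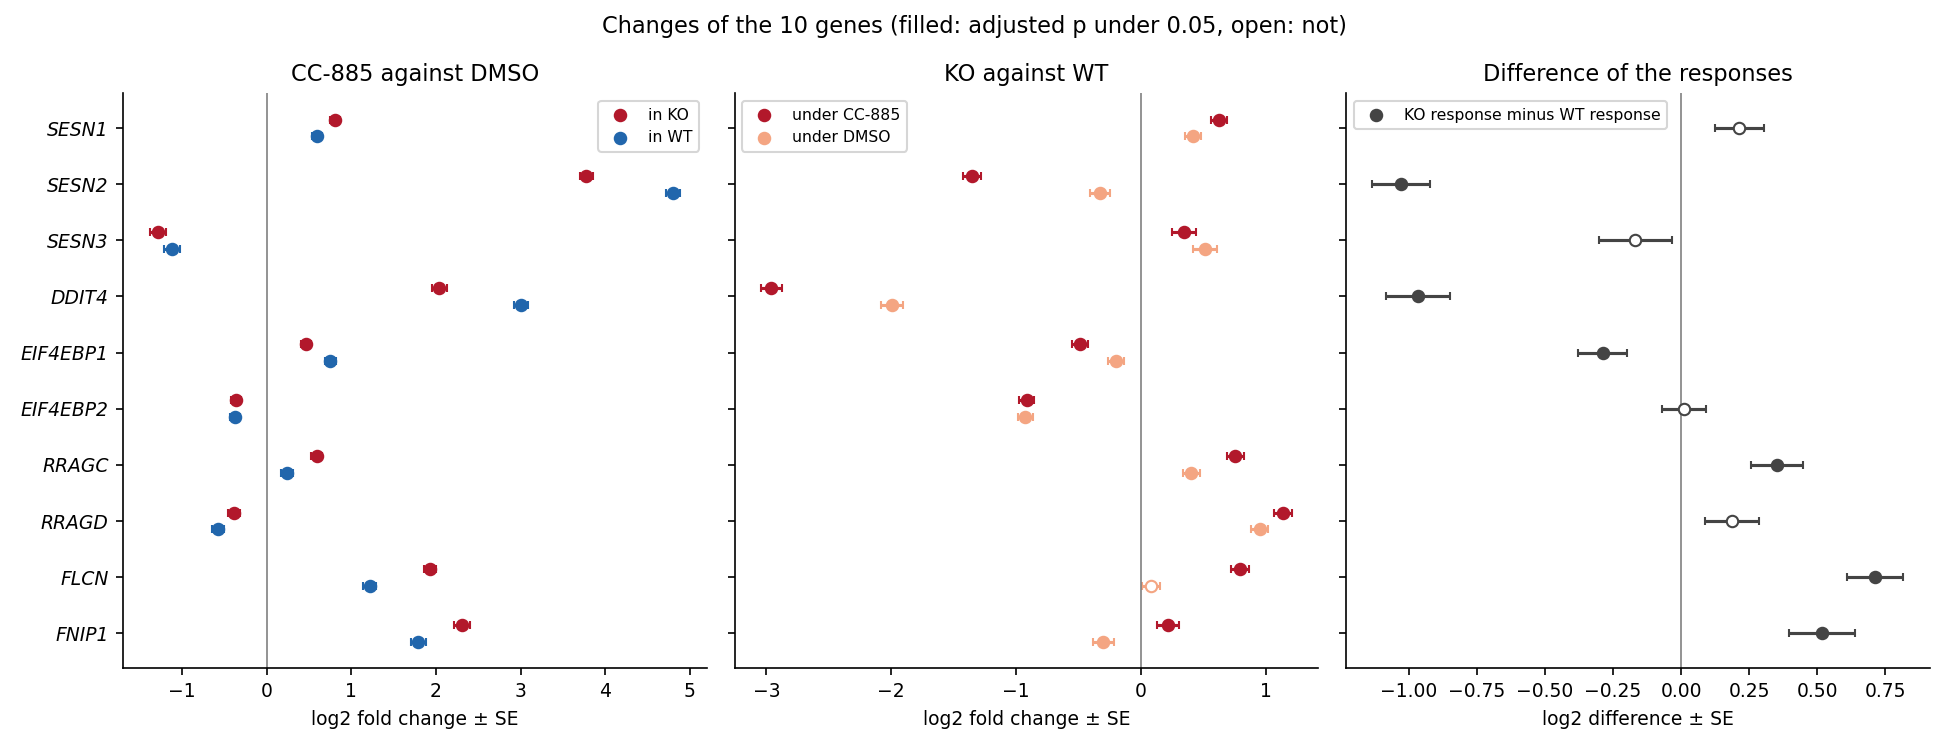
Log2 fold changes of the 10 genes with their SE: CC-885 against DMSO in KO and in WT (left), KO against WT under CC-885 and under DMSO (middle), and the KO response minus the WT response (right); filled points passed an adjusted p under 0.05 and open ones did not. SESN2 (-1.03) and DDIT4 (-0.97) lie left of 0 in the right panel and FLCN (0.71) and FNIP1 (0.52) right of it.

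Against the background of all genes, the counts of called members have to be read with care, since most genes moved. Under CC-885, 7 of the 10 rose and 3 fell in KO, where 38.9% of all tested genes rose and 40.0% fell. The same split of 7 and 3 was found in WT, where 35.7% rose and 36.6% fell. The median of the 10 was log2 0.70 in KO and 0.67 in WT, beside -0.03 over all tested genes in each. Under CC-885, 6 were higher and 4 lower in KO than in WT, beside 27.8% and 30.8% of all genes. Under DMSO 4 were higher, 5 lower and FLCN was not called, beside 21.3% and 28.4%. With upper-quartile scaling 60.7% of the genes called under DMSO were higher in KO, against 42.9% with the scaling used here, and the median of all genes moved by 0.12 in that comparison and by -0.15 in the KO response. For the difference of the responses, 3 members were called higher (RRAGC, FLCN and FNIP1) and 3 lower (SESN2, DDIT4 and EIF4EBP1), beside 17.9% and 16.8% of all genes. Of the genes called there, 51.6% were higher, or 39.7% with upper-quartile scaling. KO and WT responses and genotype differences use the same libraries in part, so they are set side by side only.

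DDIT4 and EIF4EBP2 both lie on chromosome 10 (72273924-72276036 and 70404145-70428618, GRCh38.p14, plus strand), and most genes of that chromosome were lower in KO. Under DMSO the median of the 559 other tested genes of chromosome 10 was log2 -0.99 in KO against WT, and 463 of them were called lower. Within 5 Mb of DDIT4 the median of 80 genes was -0.93, with 72 called lower and 1 higher. EIF4EBP2, at -0.93, differed by 0.05 from the median of its own 80 neighbours, and DDIT4, at -1.99, lay -1.06 from that of its neighbours and was the 30th lowest gene of the chromosome. Under CC-885 EIF4EBP2 lay -0.02 from its neighbours' median of -0.89, and DDIT4 lay -2.09 from its neighbours' median of -0.87. Copy number was not analysed here, and a difference of the clone and the loss of IRAK4 cannot be told apart. The other members do not lie on that chromosome. Under DMSO chromosome 5, which carries FNIP1 (131641714-131797017, minus strand), had a median of -0.29, and the remaining chromosomes had medians between -0.17 and 0.04. The 59 tested genes within 5 Mb of FNIP1 had a median of -0.23 under DMSO, with 28 called lower and 7 higher. FNIP1, at -0.30, lay -0.08 from that median. Under CC-885 FNIP1, at 0.22, lay 0.39 from its neighbours' median of -0.18.

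**Figure D4:**
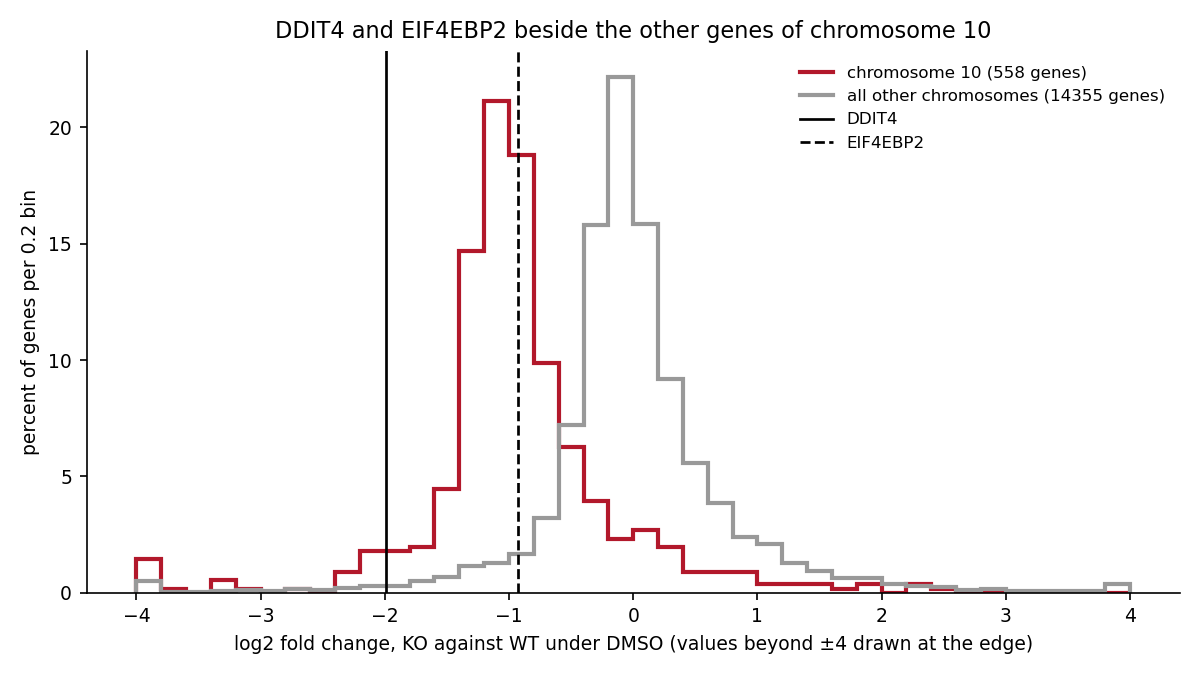
Distribution of log2 fold changes in KO against WT under DMSO for the other tested genes of chromosome 10 (red) and for all other chromosomes (grey), as percent of genes per bin, with DDIT4 (solid line) and EIF4EBP2 (dashed line). The chromosome 10 curve is centred near -0.99, with EIF4EBP2 (-0.93) inside its peak and DDIT4 (-1.99) in its lower tail.

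The genes that feed into and out of the 10 were described by lists of known pathway members. An ATF4 list held 25 genes, ATF4 itself and 24 targets that hold none of the 10. Of these, 21 rose and 3 fell in KO under CC-885 (median 1.99), beside 38.9% and 40.0% of all genes. In WT 24 rose and 1 fell (median 2.66), beside 35.7% and 36.6% of all genes. ATF3, a stress-induced transcription factor, rose by 8.38 ± 0.09 in KO (adjusted p = 2.05e-18) and 8.43 ± 0.09 in WT (adjusted p = 3.72e-18). ATF4 itself rose by 2.87 ± 0.09 in KO and 2.53 ± 0.09 in WT (adjusted p = 7.6e-14 and 5.97e-13), with a difference of 0.34 ± 0.12 (adjusted p = 0.0355). For 20 genes of the list the difference was called lower and for 2, ATF4 among them, higher, beside 16.8% and 17.9% of all genes. The median difference was -0.78, beside -0.01 over all genes. CHAC1, which degrades glutathione, differed by -3.19 ± 0.22 (adjusted p = 1.48e-07) and ATF5, a related transcription factor, by -1.80 ± 0.10 (adjusted p = 2.31e-08). SESN2, DDIT4 and EIF4EBP1 thus had a difference of the same sign as most of that list, and ATF4 transcript the opposite one.

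On the side of the lysosome, TFEB transcript rose by 1.48 ± 0.07 in KO (adjusted p = 8.51e-12), against 0.11 ± 0.07 in WT (adjusted p = 0.177), a difference of 1.37 ± 0.10 (adjusted p = 1.93e-07). Its levels were 85.2 ± 4.74 CPM in KO under CC-885, 30.6 ± 2.33 CPM in KO under DMSO, 39.0 ± 1.01 CPM in WT under CC-885 and 36.2 ± 1.12 CPM in WT under DMSO (SD, n = 3 each). TFE3 rose in both, by 2.29 ± 0.05 in KO (adjusted p = 5.01e-15) and 1.96 ± 0.05 in WT (adjusted p = 3.96e-14). Of 20 targets of TFEB and TFE3, 10 rose and 6 fell in KO under CC-885 (median 0.11), beside 38.9% and 40.0% of all genes. In WT 7 rose and 5 fell (median 0.07), beside 35.7% and 36.6% of all genes. The difference of the responses was called higher for 6 and lower for 5 of these targets (median 0.01), beside 17.9% and 16.8% of all genes. Among them the autophagy receptor SQSTM1 differed by 0.74 ± 0.09 (adjusted p = 2.23e-05) and MAP1LC3B, a protein of the autophagosome membrane, by -0.76 ± 0.09 (adjusted p = 1.38e-05). In KO against WT, 13 targets were higher and 2 lower under CC-885 (median 0.41), beside 27.8% and 30.8% of all genes. Under DMSO 11 were higher and 3 lower (median 0.26), beside 21.3% and 28.4% of all genes. The lysosomal protease CTSD was at 1.11 ± 0.06 under CC-885 and 1.16 ± 0.06 under DMSO (adjusted p = 2.72e-10 and 1.97e-10). RRAGC and RRAGD were higher in KO under both treatments, whereas FLCN and FNIP1 were not higher in KO under DMSO.

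The remaining regulators of mTORC1 moved in both directions, with list counts that are read against the shares of all genes, 38.9% higher and 40.0% lower in KO under CC-885 and 35.7% and 36.6% in WT. Of 24 genes of amino acid sensing, 7 rose and 10 fell in KO under CC-885, and 9 rose and 10 fell in WT, which is no result about the list as a whole. FNIP2, the other partner of folliculin, rose by 1.80 ± 0.08 in KO (adjusted p = 3.95e-12) and its response exceeded that in WT by 1.05 ± 0.11 (adjusted p = 5.71e-06), the largest difference of that list. MIOS, a subunit of GATOR2, rose by 1.77 ± 0.09 in KO and 1.25 ± 0.09 in WT (adjusted p = 3.64e-11 and 4.25e-09), and LAMTOR2, of the Ragulator complex that anchors the Rag GTPases, fell by -1.40 ± 0.10 and -1.01 ± 0.10 (adjusted p = 1.8e-09 and 1.15e-07). Of 12 genes of the mTOR complexes 5 rose and 7 fell in KO, and 4 rose and 7 fell in WT. MTOR rose by 0.41 ± 0.06 in KO (adjusted p = 2.38e-05), against 0.00 ± 0.06 in WT (adjusted p = 0.976), a difference of 0.40 ± 0.09 (adjusted p = 0.00277). RICTOR, of the second mTOR complex, was lower in KO than in WT by -1.15 ± 0.11 under CC-885 (adjusted p = 4.63e-07) and by -1.17 ± 0.11 under DMSO (adjusted p = 6.21e-07). It lies on chromosome 5. DEPTOR, of the same list, was higher in KO than in WT. It differed by 0.62 ± 0.13 under CC-885 (adjusted p = 0.000733) and by 1.23 ± 0.13 under DMSO (adjusted p = 7.79e-07). Of the 12 genes, 5 were higher and 4 lower in KO than in WT under CC-885, beside 27.8% and 30.8% of all genes. Under DMSO 4 were higher and 2 lower, beside 21.3% and 28.4%.

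Of the 24 tested genes of growth factor and energy input to TSC and RHEB, 12 rose and 9 fell in KO under CC-885, and 9 rose and 9 fell in WT, beside the same shares of all genes (38.9% and 40.0% in KO, 35.7% and 36.6% in WT). TSC1 rose by 1.12 ± 0.07 in KO and 0.60 ± 0.07 in WT (adjusted p = 5.07e-10 and 1.47e-06), a difference of 0.52 ± 0.10 (adjusted p = 0.00106). TSC2 measured 0.11 ± 0.07 in KO and 0.01 ± 0.07 in WT and did not pass in either (adjusted p = 0.14 and 0.907). IRS1, an adaptor of the insulin receptor, averaged 6.87 ± 0.191 CPM in KO under CC-885, 3.21 ± 0.290 CPM in KO under DMSO, 25.0 ± 0.187 CPM in WT under CC-885 and 4.49 ± 0.855 CPM in WT under DMSO (SD, n = 3 each), and its responses differed by -1.38 ± 0.16 (adjusted p = 1.66e-05). Among 18 tested effectors of mTORC1, 11 rose and 5 fell in KO and 10 rose and 5 fell in WT. EEF2K, the kinase that slows translation elongation, fell by -2.17 ± 0.08 in KO (adjusted p = 2.68e-13), and its responses differed by -0.87 ± 0.10 (adjusted p = 1.72e-05).

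Of the other factors known to drive sestrins, 9 of 20 genes of a FOXO list (FOXO1, FOXO3, FOXO4 and targets) rose and 11 fell in KO under CC-885 (median -0.31), against 9 that rose and 7 that fell in WT (median 0.22), beside 38.9% and 40.0% of all genes in KO and 35.7% and 36.6% in WT. FOXO3 transcript rose by 3.13 ± 0.08 in KO and 2.93 ± 0.08 in WT (adjusted p = 7.95e-15 and 3.06e-14), while SESN3 fell in both. Under DMSO 13 of these genes were higher and 2 lower in KO than in WT (median 0.42), beside 21.3% and 28.4% of all genes, and SESN3 was higher too. Of 20 p53 targets 12 rose and 6 fell in KO (median 0.62), and 10 rose and 5 fell in WT (median 0.56). CDKN1A, a cell cycle inhibitor, rose by 3.42 ± 0.14 in KO and 3.87 ± 0.14 in WT (adjusted p = 9.6e-11 and 6.39e-11). The rise of SESN1, 0.81 in KO and 0.59 in WT, stands beside list medians of 0.62 and 0.56. These are transcript levels, and the activity of FOXO factors and p53 was not measured. Their part in the sestrin changes was not tested.

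**Figure D5:**
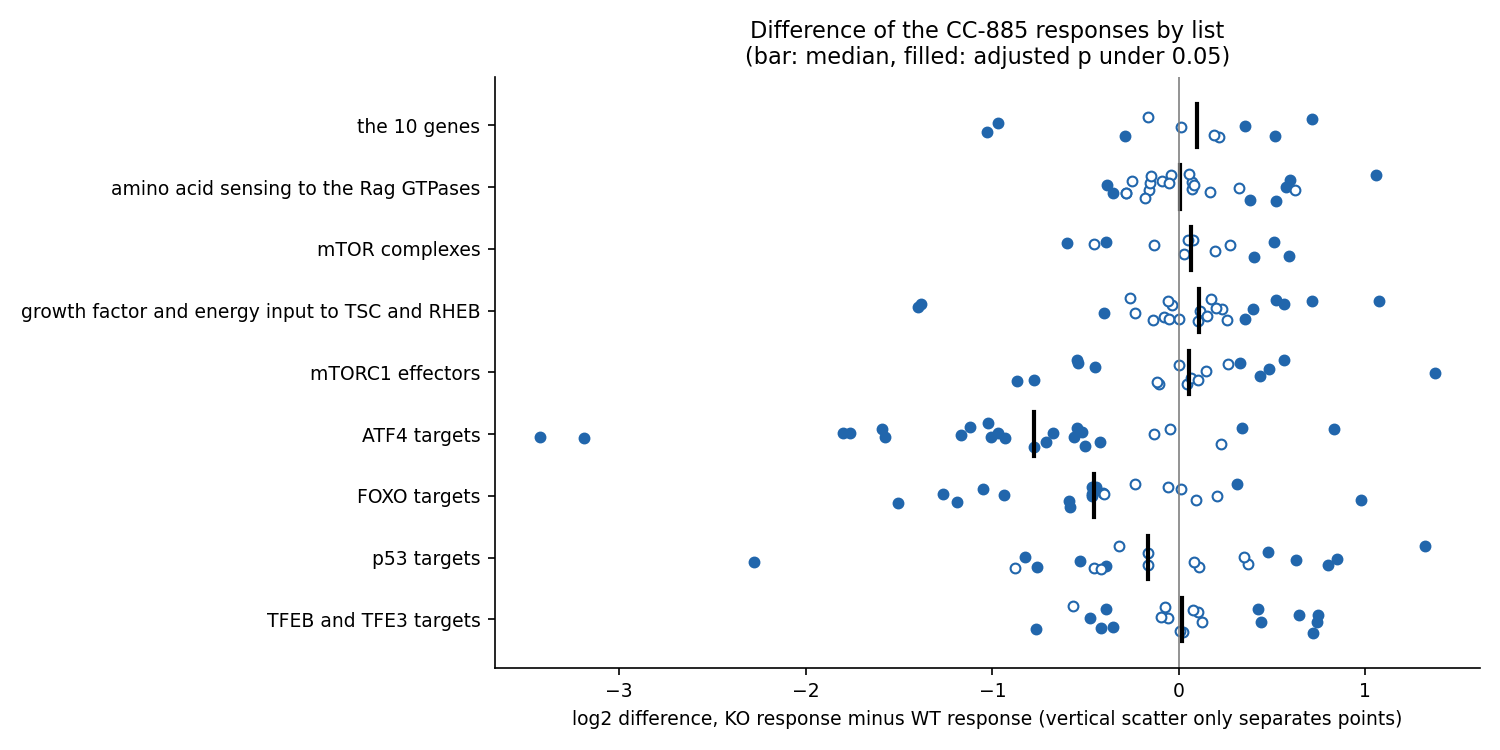
KO response minus WT response (log2) for the 10 genes and 8 pathway lists, 1 point per tested gene and a bar at the median; filled points passed an adjusted p under 0.05, and the vertical scatter within a row only separates points. The ATF4 target list has its median at -0.78, and the members' median is 0.10, with points on both sides.

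The genes whose pattern over the 12 libraries was nearest to each member were found as the smallest root mean square difference of log2 CPM, each gene centred on its mean. For DDIT4 they were IFIT2 (0.260), an interferon-induced gene that also lies on chromosome 10, and OASL (0.348), another interferon-induced gene. For SESN2 they were TNC (0.199) and GEM (0.216), and the nearest member, DDIT4, was 1.21 away. For EIF4EBP2 they were PIP4K2A (0.0595) and UROS (0.0782), both on chromosome 10. For SESN1 they were NGLY1 (0.0473) and AGTPBP1 (0.0814), and its nearest member was RRAGC (0.158), the closest pair among the 10. FLCN had ZNF416 (0.0901) and MTMR3 (0.0903) and, among the members, its partner FNIP1 (0.373), which in turn had ZNF140 (0.0755) and AHI1 (0.0771). For RRAGD they were TLR4 (0.0912) and PRKCZ (0.106), for RRAGC SRD5A3 (0.0541) and ERCC4 (0.0711), for SESN3 TMEM30A (0.104) and DSG2 (0.112), and for EIF4EBP1 CYB561D1 (0.0749) and KDM4B (0.0771). These distances are descriptions, and the libraries share their groups.

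Positions of the remaining members on GRCh38.p14 are 108984309-109094846 on chromosome 6 for SESN1 (minus strand), 28259518-28282491 on chromosome 1 for SESN2 (plus), 95165513-95232475 on chromosome 11 for SESN3 (minus), 38030534-38060365 on chromosome 8 for EIF4EBP1 (plus), 38838198-38859772 on chromosome 1 for RRAGC (minus), 89364616-89412273 on chromosome 6 for RRAGD (minus) and 17212212-17237330 on chromosome 17 for FLCN (minus). Annotated antisense genes overlap exons of SESN1, SESN3 and DDIT4, and without a stated strand setting reads of the 2 strands cannot be told apart there. EIF4EBP1 has 1 and EIF4EBP2 has 3 annotated processed pseudogenes, and annotated transcripts on the same strand overlap exons of RRAGC, FLCN and FNIP1. How the authors' counting split such reads is not given in the sources used here.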

How the data were processed

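The authors deposited 1 table of raw, unnormalized read counts, with a column for each of the 12 libraries and a row for each gene symbol. Per the submitters' processing notes, FastQC 0.11.2, HISAT2 2.0.5, featureCounts 1.5.2 and build GRCh38 were used, and per the labels' protocols polyA-selected TruSeq libraries were read as pairs. The extraction protocol names a mouse build instead, but the symbols are human. For the strand setting and multiply mapped reads nothing is stated: not given in the sources used here. Titles gave the 4 groups, and the cell line was taken from the titles because its tag changes from sample to sample.

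Genes were kept by filterByExpr (16010 of 30017 symbols), scaled by TMM and fitted with edgeR 4.0.16 (robust quasi-likelihood, R 4.3.3) to all 12 libraries with 1 coefficient per group. 5 contrasts were tested, with Benjamini-Hochberg adjustment over all genes and a threshold of 0.05. The model's common biological coefficient of variation was 0.0899. Levels are edgeR CPM with TMM scaling, mean ± SD, and standard errors come from the F statistic. TMM centres changes on the bulk of genes, so amounts per cell are not given, and fewer cells and less RNA per cell cannot be told apart. Labels do not say whether replicates are separate cultures, so p-values measure the spread between these libraries, which may be technical.

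The 10 genes, the pathway and marker lists and the tests were chosen with earlier results of these data known. Named are all 10 members, IRAK4 and GSPT1, from each list at most the 3 called genes of largest change with a mean of at least 5 CPM in the higher group, ATF4, TSC1, TSC2, MTOR and TFEB as reference points, and the 2 nearest genes of each member. The chromosome of RICTOR was looked up after its values were seen. Chromosomes were found for 14915 tested symbols in RefSeq. Promoters are from RefSeq. Alternatives were other scaling factors, no filter, only the groups compared, replicate numbers or the library-name prefix in the model, libraries of 1 prefix, each library left out, and DESeq2 1.42.0.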

Additional observations from a re-analysis of the deposited data

Results flagged for a closer look

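For 6 of the 10 genes the test of the difference itself found that the response to CC-885 differed between KO and WT cells (edgeR, adjusted over all genes), 3 with the higher response in KO and 3 with the lower, beside 17.9% and 16.8% of all tested genes. The KO response minus the WT response was -1.03 for SESN2 (adjusted p = 4.94e-06), -0.97 for DDIT4 (adjusted p = 2.02e-05) and -0.29 for EIF4EBP1 (adjusted p = 0.0223) on the log2 scale, so these rose less in KO. It was 0.35 for RRAGC (adjusted p = 0.00954), 0.71 for FLCN (adjusted p = 8.66e-05) and 0.52 for FNIP1 (adjusted p = 0.00384), which rose more in KO. The EIF4EBP1 difference lost its call without any 1 of 4 libraries named above and with the library-name number in the model, and the RRAGC difference with no filter on low counts. No test for an outlying library was run on the level of a single gene, since each group has 3 libraries.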

How the results depend on the processing

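Of 50 results for the 10 genes (5 comparisons each), 42 kept direction and call under every alternative run, 7 lost the call under at least 1 and 1 changed sign. The sign change was the difference of the EIF4EBP2 responses, 0.01 as reported, which passed under no setting: it was -9.81e-05 with RLE factors, -0.068 with upper-quartile factors, -0.034 with library size alone, -0.072 with no filter and -0.0041 among libraries of the prefix 51 alone, and -0.041 to 0.045 with each library left out. The cause was not tested. Beside the losses given with the results, the EIF4EBP1 difference under DMSO lost its call with library size alone (-0.15, adjusted p = 0.0995) and no filter (-0.15, 0.102). It also lost it with only the groups compared (-0.14, 0.084) and with the prefix 51 alone (-0.20), where replicate 1 is the only WT DMSO library. FNIP1 under CC-885 lost it with no filter (0.19, 0.0673) and only the groups compared (0.22, 0.0931).

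Whether the numbers in the titles pair the libraries is not settled by correlation. Of 18 same-numbered pairs, 2 had deviations correlated above 0.1 (range -0.03 to 0.23), and 2 of 11 by the number in the library name. They are the same 2 pairs: WT CC-885 with KO DMSO at replicate 1 (0.21) and at replicate 3 (0.23). Each pair also shares its prefix, so number and prefix cannot be told apart there. Among all pairs from different groups, those of the same prefix ranged from -0.05 to 0.23. Those of unlike prefix ranged from -0.27 to 0.03. With the title number as a replicate block, 12682 genes were called in the KO response, 11638 in the WT response, 9396 and 7994 in KO against WT under CC-885 and DMSO, and 5598 for the difference of the responses, against 12627, 11575, 9384, 7958 and 5562 without it. It changed no call among the 10 genes. With the library-name number as a replicate block, RRAGC in the WT response (0.21, adjusted p = 0.0618), FNIP1 under DMSO (-0.23, 0.0688) and the EIF4EBP1 difference of responses (-0.28, 0.0632) lost their calls. Counts of called genes stayed within 1.5 times under every alternative. The libraries of the prefix 52 alone, added after the data were seen, gave SESN2 4.78 and DDIT4 2.88 in the WT response. They hold no KO library under CC-885, and their only treated WT library is WT CC-885 replicate 3. At 46903984 counts or more a library no member was near 0 (lowest, DDIT4 at 4.89 CPM in KO under DMSO). With 3 libraries a group, differences of the responses of 0.21 for SESN1 and 0.19 for RRAGD did not pass.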
